A study of Mus musculus with 12 samples.

Results

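The genes described here build the triad of skeletal muscle, where a T-tubule meets the sarcoplasmic reticulum and calcium is released for contraction. The 9 genes were chosen by name: the calcium release channel Ryr1, the junctophilins Jph1 and Jph2, the calsequestrins Casq1 and Casq2, and Trdn, Asph, Stac3 and Jsrp1. They are 9 of the 26264 gene symbols counted in each library, and all 9 were among the 13499 genes with enough reads to be tested. RNA of the mouse tibialis anterior, a fast muscle of the lower leg, was sequenced in 3 groups of 4 libraries. In the first, the left muscle received 50 µl of an extracellular matrix gel at 6 mg/ml. In the second, the right muscle received the same volume of PBS, the vehicle. The third is labelled uninjured and has no injection in its label. Gel and PBS therefore lay on opposite sides of the body, and treatment and side cannot be told apart. The series title speaks of acute and chronic disuse injuries, but the labels state neither the injury nor the time of sampling, nor the strain, sex and age of the mice.

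An action potential travels down the T-tubule and moves the voltage sensor, the dihydropyridine receptor, whose pore subunit is Cacna1s. In skeletal muscle the sensor opens Ryr1 by direct coupling, for which Stac3 is needed, and calcium leaves the sarcoplasmic reticulum. Junctophilins tie the membranes together, calsequestrins store calcium in the lumen, and triadin (Trdn) and junctin (from Asph) link the store to the channel. Casq1 is the skeletal calsequestrin, while Casq2 is the form of the heart, also made in slow and developing skeletal fibres.

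The start-site regions of the calsequestrin pair are printed because Casq2 RNA rose where Casq1 RNA did not pass the test, and that of Jph2 because it had the lowest gel to PBS ratio of the 9 genes. Each run covers 250 bases before to 50 bases after the start, 5′ to 3′ on the gene's strand, from RefSeq on build GRCm38.p6, which differs from the mm39 build in the submitters' processing notes. Capitals mark CAGCTG, an E-box of the kind bound by myogenic factors, or a match to the MEF2 site. Positions count from the start, with -1 the base before it.
Casq1, chr1:172219846-172220145, minus strand: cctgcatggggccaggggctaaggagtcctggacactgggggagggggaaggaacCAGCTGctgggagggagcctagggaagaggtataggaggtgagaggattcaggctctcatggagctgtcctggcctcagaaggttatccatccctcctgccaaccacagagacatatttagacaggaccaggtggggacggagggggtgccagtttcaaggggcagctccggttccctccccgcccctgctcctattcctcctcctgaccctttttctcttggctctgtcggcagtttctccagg
Casq2, chr3:102086165-102086464, plus strand: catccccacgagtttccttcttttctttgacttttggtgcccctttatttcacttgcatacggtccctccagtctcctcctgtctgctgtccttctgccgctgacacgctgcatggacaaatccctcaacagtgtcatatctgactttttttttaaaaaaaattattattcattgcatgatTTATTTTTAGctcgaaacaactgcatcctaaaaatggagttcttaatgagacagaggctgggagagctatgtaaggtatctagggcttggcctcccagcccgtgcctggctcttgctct
Jph2, chr2:163397944-163398243, minus strand: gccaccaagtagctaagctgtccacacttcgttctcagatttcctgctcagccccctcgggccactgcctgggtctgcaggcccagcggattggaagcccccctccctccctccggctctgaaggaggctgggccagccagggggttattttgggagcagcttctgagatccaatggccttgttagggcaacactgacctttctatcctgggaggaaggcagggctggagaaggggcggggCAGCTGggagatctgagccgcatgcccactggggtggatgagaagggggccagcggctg
The Casq1 window holds CAGCTG at -195 and no MEF2 match, and the Casq2 window holds a MEF2 match at -69 and no CAGCTG. The Jph2 window holds CAGCTG at -9; RefSeq lists a further Jph2 start (window chr2:163397924-163398223), from which the same match lies at -29. The Ryr1 window (chr7:29125102-29125401, minus strand) held neither. The search read both strands. Among 32851 promoter windows of the same length, 16.3% held CAGCTG, 3.2% a MEF2 match and 72.3% any E-box of the form CANNTG, of which CAGCTG is a case. These matches describe letters only. Jph1, Trdn, Asph, Stac3 and Jsrp1 were not matched in the promoter table.

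Sequencing gave 15626086 to 22182483 counted reads per library, and the lowest count of any of the 9 genes in any library was 301, for Casq2. Markers of mature fast fibres (12 genes) were abundant and summed to 219125 to 242888 CPM (read count relative to the TMM-scaled library size) in uninjured, 179289 to 216170 in PBS and 143473 to 187894 in gel muscle. Macrophage markers (10 genes) summed to 39.4 to 78.2 CPM in uninjured and 28.1 to 59.2 CPM in PBS. In gel they reached 988, 1545 and 1799 CPM in 3 libraries and 98.3 CPM in gel 3, and all 10 were higher than in PBS. Fibroblast markers (8 genes) summed to 2658 to 3162 CPM in those 3 gel libraries and 613 CPM in gel 3, with Col1a1 and Col3a1 the most abundant. Of the 8, 3 (Col1a1, Col3a1 and Dpt) were higher than in PBS at an edgeR adjusted p below 0.05. Dcn was at 0.21 on the log2 scale and Gsn at -0.72, neither below that threshold. Developing fibre markers (8 genes) summed to 413 to 549.9 CPM in uninjured, 576 to 2557 in PBS and 1609 to 2927 in gel. In whole tissue, fewer cells of a type and less RNA per cell cannot be told apart. The part of this cell mixture in the results below was not tested.

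Between uninjured and gel muscle, 5 of the 9 genes changed: Casq2 rose 3.63-fold and Ryr1, Jph1, Jph2 and Jsrp1 fell. Between PBS and gel muscle 2 of 9 fell, Jph1 and Jph2. Between PBS and uninjured muscle only Casq2 passed the test of the 9, and it rose. Casq1, the most abundant of the 9 per length, did not pass in any comparison. A change was called at an adjusted p below 0.05 in edgeR's quasi-likelihood test, Benjamini-Hochberg adjusted over all 13499 genes. Fold changes are log2 ± SE with 4 libraries a group. Each gene's spread was estimated from all 12 libraries, so gel libraries also entered the SE of PBS against uninjured. That SE was 0.181 for Jph2 and 0.138 for Jsrp1, and 0.112 and 0.095 with those 2 groups alone.

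Those counts stand against calls over all genes. Between gel and PBS, 29.8% of all genes passed, 16.6% higher and 13.2% lower. Between gel and uninjured, 25.6% passed, 14.5% higher and 11.1% lower. Between PBS and uninjured, 6.17% passed, 2.79% higher and 3.39% lower. The median log2 change of the 9 genes was -0.29 for gel against PBS (all genes 0.04), -0.49 for gel against uninjured (all genes 0.03) and -0.07 for PBS against uninjured (all genes 0.00). The 3 comparisons share libraries, so they are not separate evidence. With library totals and no scaling factor, an alternative added after seeing the data, the median of all genes moved by 0.20 for gel against PBS and 0.27 for gel against uninjured. The higher share of called genes then went from 55.6% to 77.1% and from 56.6% to 84.6%, and from 45.1% to 68.8% for PBS against uninjured.

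**Figure D1:**
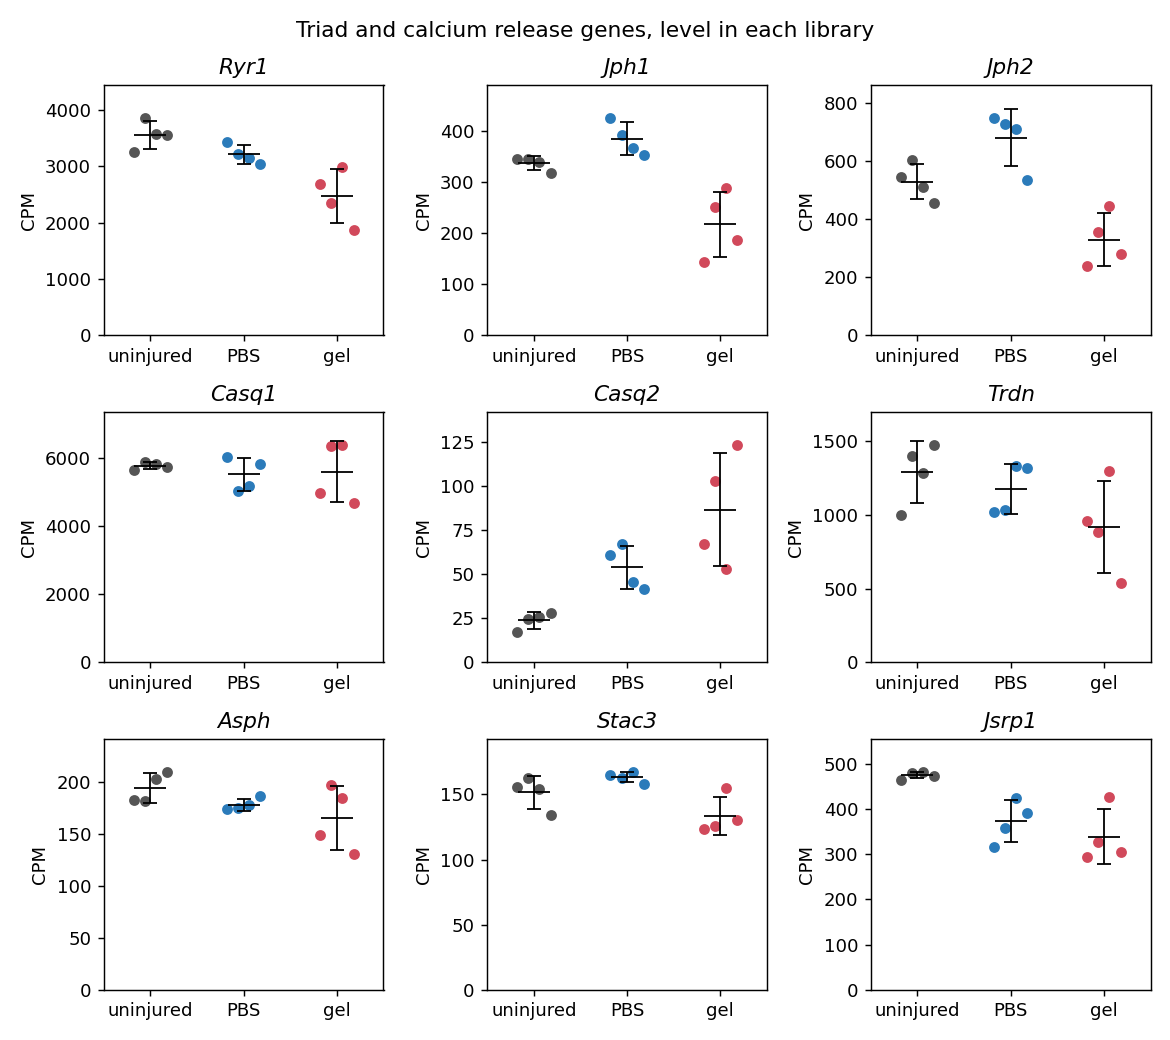
Level of the 9 genes in each library, in CPM on a linear axis from 0; points are libraries, long bars the group mean and whiskers the SD (n = 4). Gel points of Jph1 and Jph2 lie below all PBS and uninjured points, and Casq2 lies above uninjured in every PBS and gel library.

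Casq2 had the lowest level per length in uninjured muscle, with at least 301 reads in each library. Uninjured libraries 1 to 4 held 17.1, 24.7, 25.6 and 28.2 CPM. PBS libraries held 61.1, 67.0, 45.8 and 41.7 CPM. Gel libraries held 67.1, 103, 53.1 and 123 CPM. Every PBS and gel library lay above every uninjured one, while gel and PBS overlapped. Casq2 rose by 1.17 ± 0.26 from uninjured to PBS (edgeR adjusted p = 0.0175), or 2.26-fold, and by 1.86 ± 0.26 from uninjured to gel (edgeR adjusted p = 0.000489). The PBS call was lost without PBS 1 (adjusted p = 0.0529) or without PBS 2 (adjusted p = 0.0567). Gel against PBS gave 0.68 ± 0.25 and did not pass (edgeR adjusted p = 0.0551), though it did with DESeq2 (adjusted p = 0.0276), upper-quartile scaling (0.0478) and unscaled totals (0.0352).

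Markers that share Casq2 expression are given beside this. Slow fibre markers (8 genes) summed to 151 to 385 CPM in uninjured, 135 to 319 in PBS and 211 to 312 in gel. From uninjured to gel 2 of 8, Tnni1 and Tnnt1, rose. Myh7 (-2.97), Myl2 (-0.84) and Myl3 (-0.85) went the other way and did not pass. Of the 8 developing fibre markers, 1 (Actc1) rose from uninjured to PBS, 7 rose from uninjured to gel and 6 from PBS to gel. Of 5 cardiac markers, Nppb and Myl7 were at 0 in every library. Myh6 averaged 3.00 CPM in uninjured, 7.31 in PBS and 3.41 in gel, with reads in every library, and Tnni3 averaged 0.197, 0.222 and 1.10 CPM. Nppa averaged at most 0.188 CPM in a group. The part of these fibre types in the Casq2 result was not tested.

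Casq1 RNA lay at 5652, 5874, 5830 and 5736 CPM in uninjured, 6032, 5040, 5179 and 5822 CPM in PBS, and 4972, 6357, 6384 and 4676 CPM in gel. All 3 groups overlapped, with the widest spread in gel. The log2 change was 0.02 for gel against PBS, with a 95% interval of -0.27 to 0.31, and -0.04 for gel against uninjured, with an interval of -0.33 to 0.24. Those intervals show which sizes of change the data allow, and the sign of the estimate flipped between alternatives.

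The ratio of the calsequestrin paralogs within a library does not depend on library scaling. Casq2 made 0.302% to 0.490% of the pair's counts in uninjured muscle, 0.711% to 1.31% in PBS and 0.825% to 2.57% in gel. The log2 Casq2 to Casq1 ratio was -7.93 ± 0.30 (SD, n = 4) in uninjured, -6.70 ± 0.37 in PBS and -6.08 ± 0.69 in gel. It was higher than uninjured by 1.24 in PBS and by 1.86 in gel, with no overlap of libraries in either case. Each gave p = 0.0286 in a two-sided exact permutation test, the smallest that 4 against 4 allows, and 0.0857 after Benjamini-Hochberg adjustment over 6 ratio tests. Gel exceeded PBS by 0.62, which did not pass (exact permutation p = 0.2, adjusted 0.24).

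**Figure D2:**
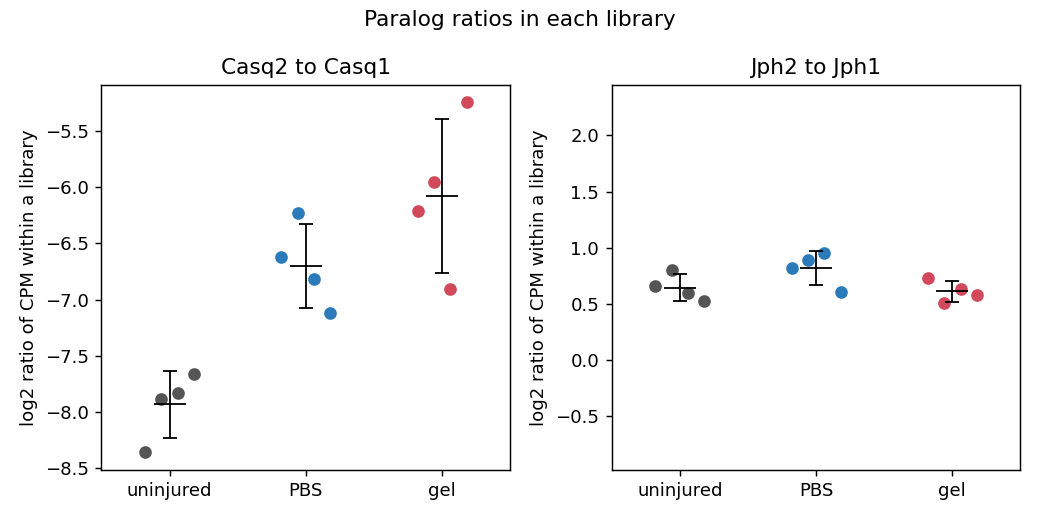
Log2 ratio of CPM within each library for Casq2 to Casq1 and Jph2 to Jph1; points are libraries, long bars the mean and whiskers the SD (n = 4). The Casq2 to Casq1 ratio sits near -7.93 in uninjured and above it in all PBS and gel libraries, while the Jph2 to Jph1 ratio overlaps between the 3 groups.

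Jph2 ties the T-tubule to the sarcoplasmic reticulum and had the largest fall from PBS to gel of the 9 genes. Uninjured libraries held 545, 602, 511 and 457 CPM, and PBS libraries 749.9, 727, 709.9 and 535 CPM. Gel libraries held 237, 355, 445 and 279 CPM, all below every PBS and every uninjured library. Jph2 fell by 1.05 ± 0.18 from PBS to gel, to 0.483 of the PBS level (edgeR adjusted p = 0.00208), and by 0.69 ± 0.18 from uninjured to gel (edgeR adjusted p = 0.0124). PBS against uninjured was 0.36 ± 0.18, which did not pass (edgeR adjusted p = 0.252), though it did with those 2 groups alone (adjusted p = 0.0257).

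Jph1, the junctophilin found mainly in skeletal muscle, was also lowest in gel. It lay at 345, 345, 339 and 318 CPM in uninjured and at 425, 392, 366 and 352 CPM in PBS. In gel it lay at 143, 249.97, 287 and 187 CPM, below all libraries of the other groups. The fall from PBS to gel was -0.83 ± 0.17 (edgeR adjusted p = 0.00390) and from uninjured to gel -0.64 ± 0.17 (edgeR adjusted p = 0.0146), the latter lost with unscaled totals (adjusted p = 0.0545). PBS lay above uninjured with no overlap, by 0.19 ± 0.17, and did not pass (edgeR adjusted p = 0.568). The ratio of the 2 junctophilins overlapped between all groups: log2 Jph2 to Jph1 was 0.64 ± 0.12 in uninjured, 0.82 ± 0.15 in PBS and 0.61 ± 0.10 (SD, n = 4) in gel. None of its 3 differences passed, gel minus PBS being -0.21 (two-sided exact permutation p = 0.0857, adjusted 0.171). The smallest p of that permutation test, 0.0286, cannot pass after adjustment over 6 ratio tests unless several tests reach it. Not passing therefore does not show that the ratio was unchanged.

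Ryr1 forms the release channel itself. Uninjured libraries held 3252, 3869, 3575 and 3565 CPM, PBS 3437, 3225, 3153 and 3048 CPM, and gel 2695, 2344, 2989 and 1878 CPM. All gel libraries lay below all others, while PBS overlapped uninjured. Ryr1 fell by 0.53 ± 0.14 from uninjured to gel (edgeR adjusted p = 0.0150). From PBS to gel the change was -0.38 ± 0.14, without overlap, and did not pass (edgeR adjusted p = 0.0587). It did pass in 4 of 20 alternatives. These were DESeq2 (adjusted p = 0.0149), limma voom (0.0449), edgeR with median-ratio factors (0.0488) and edgeR without gel 3 (0.00412).

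Stac3 is the adaptor that voltage-gated release requires. It lay at 155, 163, 154 and 134 CPM in uninjured, 165, 163, 167 and 158 CPM in PBS and 124, 126, 155 and 130.1 CPM in gel. Gel lay below PBS with no overlap but overlapped uninjured. The difference from PBS, -0.29 ± 0.11, did not pass (edgeR adjusted p = 0.0599), and passed in 4 of 20 alternatives. These were DESeq2 (adjusted p = 0.0137), limma voom (0.0486), edgeR with median-ratio factors (0.0481) and edgeR without gel 3 (0.00509).

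Jsrp1 encodes a protein of the junctional sarcoplasmic reticulum that binds the voltage sensor and Casq1. It held 466, 481, 483 and 474 CPM in uninjured, a narrow range. PBS libraries lay lower at 316, 359, 425 and 391 CPM, and gel libraries at 295, 327, 428 and 304 CPM. Both injected groups lay wholly below uninjured and overlapped each other. It fell by 0.49 ± 0.14 from uninjured to gel (edgeR adjusted p = 0.0169), whereas PBS against uninjured gave -0.35 ± 0.14 and did not pass (edgeR adjusted p = 0.142), though it did with those 2 groups alone (adjusted p = 0.0161) and without gel 3 (adjusted p = 0.0334). The gel call was lost with unscaled totals (adjusted p = 0.0793). Gel against PBS was -0.14 ± 0.14 (edgeR adjusted p = 0.470).

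Trdn, which holds calsequestrin near the channel, did not pass in any comparison. It lay at 998, 1397, 1285 and 1476 CPM in uninjured, 1022, 1036, 1332 and 1319 CPM in PBS, and 956, 883, 1299 and 538 CPM in gel. Only gel 4 lay far below the other libraries, and the groups overlapped. Gel against PBS gave -0.36 ± 0.22 (edgeR adjusted p = 0.223) and gel against uninjured -0.49 ± 0.22 (edgeR adjusted p = 0.108).

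Asph encodes aspartate beta-hydroxylase, junctin and junctate from different transcripts, which gene counts add together. It lay at 182, 181, 202 and 209 CPM in uninjured, 174, 174, 177 and 186 CPM in PBS and 148, 197, 184 and 131 CPM in gel. Groups overlapped, and gel against PBS gave -0.11 ± 0.13 (edgeR adjusted p = 0.571). In GENCODE M21, which is on another build, exons of Asph overlap 2302 bases of Clvs1 on the opposite strand, and exons of Ryr1, Casq1 and Jph1 overlap antisense genes by 864, 156 and 34 bases. No label or header states the strand setting of the counting, so reads of such a pair cannot be told apart.

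**Figure D3:**
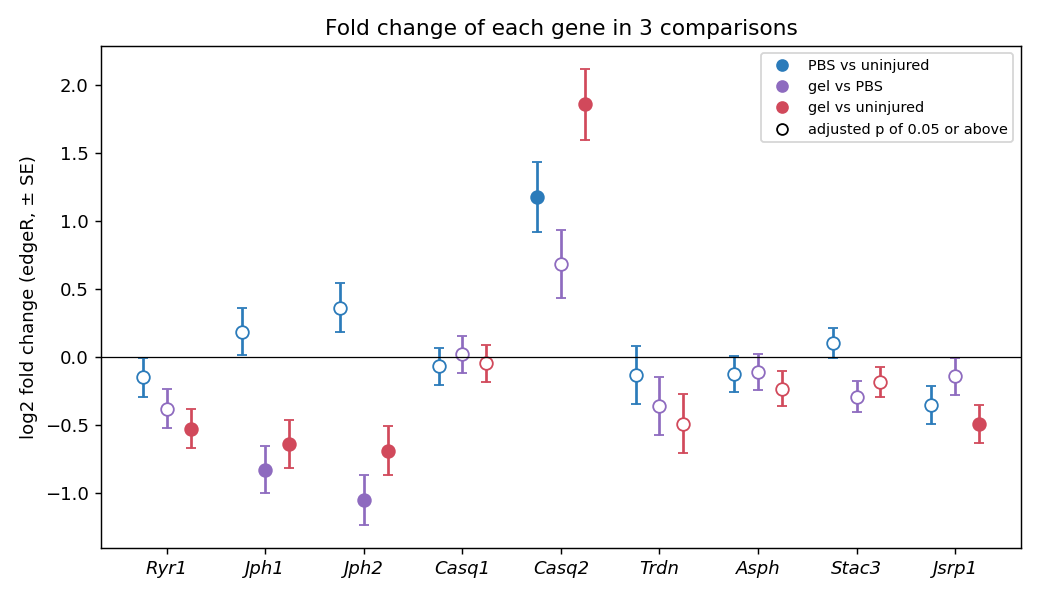
Log2 fold change (edgeR, ± SE) of each gene in the 3 comparisons; filled points have an adjusted p below 0.05 and open points do not. Filled points are 1 for PBS against uninjured (Casq2), 2 for gel against PBS (Jph1, Jph2) and 5 for gel against uninjured.

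Gel 3 had by far the lowest macrophage and fibroblast marker sums of the gel libraries. Among them it also had the highest Ryr1, Jph1, Jph2, Casq1, Trdn, Stac3 and Jsrp1 and the lowest Casq2. The margin differed by gene, and Casq1 was almost equal in gel 2. Without gel 3, in a setting planned for every library, 7 of 9 genes passed for gel against PBS, 1 higher and 6 lower. Calls over all genes rose as well in that setting, to 42.7% for gel against PBS, 38.3% for gel against uninjured and 12.1% for PBS against uninjured. Casq2 was then 0.85 (edgeR adjusted p = 0.00842), Trdn -0.58 (edgeR adjusted p = 0.0201), Stac3 -0.38 (edgeR adjusted p = 0.00509) and Jsrp1 -0.28 (edgeR adjusted p = 0.0483). For gel against uninjured 7 of 9 also passed, with Trdn at -0.71 (edgeR adjusted p = 0.00714) and Stac3 at -0.27 (edgeR adjusted p = 0.0381) added. For PBS against uninjured 2 passed, with Jsrp1 added (edgeR adjusted p = 0.0334). The part of the marker levels in this was not tested.

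The legs of gel and PBS libraries that share a number were set side by side, as left and right muscle of the same numbered animal. Jph2 was lower in the gel leg in 4 of 4 pairs, by -1.66, -1.04, -0.67 and -0.94 on the log2 scale. Jph1 was lower in 4 of 4, by -1.57, -0.65, -0.35 and -0.91, and Ryr1 by -0.35, -0.46, -0.08 and -0.70. Casq2 was higher in 4 of 4, by 0.14, 0.62, 0.21 and 1.56. Stac3 and Trdn were lower in 4 of 4, whereas Casq1 and Asph were higher in 2 and lower in 2. Jsrp1 differed by -0.10, -0.14, 0.01 and -0.36. With 4 pairs the smallest p of a two-sided sign-flip test is 0.125, so agreement of 4 of 4 is a description. The pair numbered 4 had the largest differences for Ryr1, Casq2 and Trdn, and the pair numbered 3 the smallest for Ryr1, Jph1 and Jph2.

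**Figure D4:**
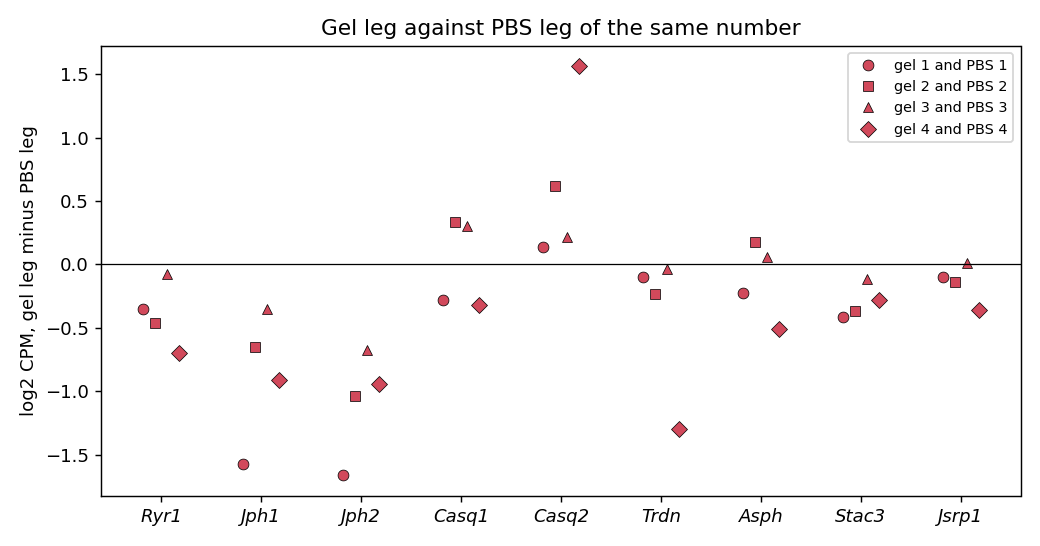
Difference in log2 CPM between gel leg and PBS leg of the same number; each symbol is a pair. Jph1, Jph2, Ryr1, Stac3 and Trdn lie below 0 in 4 of 4 pairs and Casq2 above 0 in 4 of 4. Casq1, Asph and Jsrp1 have pairs on both sides of 0.

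Per kilobase of the longest coding transcript, uninjured means ran from Casq1 at 3126 CPM per kb, through Jsrp1 (429.6), Trdn (286), Ryr1 (232), Jph2 (126), Stac3 (84.6), Jph1 (70.03) and Asph (28.9), to Casq2 at 9.35. Trdn and Ryr1 overlapped in their libraries and cannot be ordered. In gel the order of means held from Casq1 (3030.3) down, except that Casq2 (33.9 ± 12.6 CPM per kb) lay above Asph (24.7). Libraries overlapped there between Casq2 and Asph, Jph1 and Casq2, Jph2 and Jph1, Jsrp1 and Trdn, Trdn and Ryr1, and Jph2 and Stac3. PBS means kept the uninjured order, with overlap between Jsrp1 and Trdn, Stac3 and Jph1, and Asph and Casq2. Pairs that overlapped cannot be ordered. Set against the 12 fast fibre markers of the same library, gel minus PBS was -0.09 for Ryr1, -0.56 for Jph1, -0.77 for Jph2, 0.32 for Casq1 and 0.94 for Casq2 on the log2 scale. The marker list itself changed by -0.31, and 4 of its 12 genes fell and 1 (Mylpf) rose. Relative to that list, gel minus uninjured was -0.20 for Jph1, -0.23 for Jph2, -0.06 for Ryr1, -0.02 for Jsrp1, 0.43 for Casq1 and 2.28 for Casq2. These are descriptions without a test.

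Of 40 further genes of the pathway, 37 were tested; Ryr2, Jph3 and Jph4 stayed at or below 0.99 CPM. From uninjured to PBS 2 of 37 rose, calmodulin gene Calm2 (0.70 ± 0.13, edgeR adjusted p = 0.00540) and Homer2, a scaffold protein (0.72 ± 0.20, edgeR adjusted p = 0.0377). Over all genes 6.17% were called in that comparison, 2.79% higher and 3.39% lower. From PBS to gel 3 of 37 rose and 7 fell, 10 in all, beside 29.8% of all genes called. From uninjured to gel 4 rose and 7 fell, 11 in all, beside 25.6% of all genes. In each comparison the called share of the list is near that of all genes. The list's median log2 change was -0.17 for gel against PBS (all genes 0.04) and -0.15 for gel against uninjured (all genes 0.03). Homer2 lost its PBS call without PBS 1, 2 or 3 or without any of the uninjured libraries.

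The voltage sensor gave 1 of 4 called for gel against PBS, where 29.8% of all genes were. Cacna1s was 867 ± 48.5 CPM in uninjured, 1064 ± 136 in PBS and 668 ± 141 in gel (SD, n = 4). It fell by 0.67 ± 0.15 from PBS to gel (edgeR adjusted p = 0.00518). For Cacna1s gel against uninjured gave -0.38 ± 0.15 and did not pass (edgeR adjusted p = 0.0790). It did pass with DESeq2 (adjusted p = 0.0365) and without gel 3 (edgeR adjusted p = 0.00141). Its beta subunit Cacnb1 was at -0.18 for gel against PBS and 0.17 for gel against uninjured, and did not pass. It passed for gel against PBS without gel 3 (-0.36, edgeR adjusted p = 0.00890) and for gel against uninjured with unscaled totals (0.42, edgeR adjusted p = 0.0100). Among regulators of the channel, Calm3 fell by 0.82 and Homer2 by 0.75 from PBS to gel, and Selenon, a selenoprotein of the reticulum, rose by 1.38. Fkbp1b, a channel-binding immunophilin, went from 0.465 to 1.65 CPM (edgeR adjusted p = 0.0461) and lost its call in 9 alternatives, with no filter and without gel 1, 2 or 4, PBS 1, 2 or 3, or uninjured 1 or 4. From uninjured to gel Fkbp1b, Calm2 and Selenon rose, and Calm3 and Homer1 were among those that fell. Homer2 was at -0.03 there and did not pass (edgeR adjusted p = 0.939). The Homer1 call was lost in 8 alternatives (adjusted p up to 0.171), among them leaving out gel 1 or 4 or uninjured 1, 2 or 3. The Fkbp1b call was lost without gel 2 or 4 or uninjured 1, 2 or 4 (adjusted p up to 0.0930).

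Sarcoplasmic reticulum genes gave 3 of 8 lower from PBS to gel, where 13.2% of all genes were lower. The cation channel Tmem38a fell by 0.60 and Tmem109 by 0.72, and sarcalumenin (Srl), a luminal calcium binder, by 0.49 (edgeR adjusted p = 0.0445), a call lost in 13 alternatives, among them every left-out library but gel 3 and PBS 4, the 2 groups alone and the paired fit (replicate block). The Tmem38a call was lost with the 2 groups alone (adjusted p = 0.0510). For gel against uninjured, Tmem109 (-0.39) and Srl (-0.18) did not pass. Tmem38a also fell from uninjured to gel, by 0.52, a call lost with unscaled totals (adjusted p = 0.0809) and without gel 1, 2 or 4 or uninjured 1, 2 or 3 (adjusted p up to 0.0708). Of 9 T-tubule genes, Tcap, a Z-disc protein, was the 1 called from uninjured to gel, where it fell by 0.97 (edgeR adjusted p = 0.00947). Over all genes 25.6% were called in that comparison, and 11.1% were lower. Bin1, which curves the T-tubule membrane, stood at 0.00 for gel against PBS and -0.19 for gel against uninjured. Of the store-operated entry genes, Stim1, the calcium sensor of the reticulum, fell by 0.50 from PBS to gel, and Orai2, a plasma membrane channel subunit, rose by 1.46, a call lost without gel 4 (adjusted p = 0.0537). Stim2 fell and Orai2 rose from uninjured to gel. Stim1 was at -0.13 there and did not pass (edgeR adjusted p = 0.480), though it did without gel 3 (edgeR adjusted p = 0.0391). Orai1 (0.08 for gel against PBS) and Ryr3 (0.64) did not pass.

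**Figure D5:**
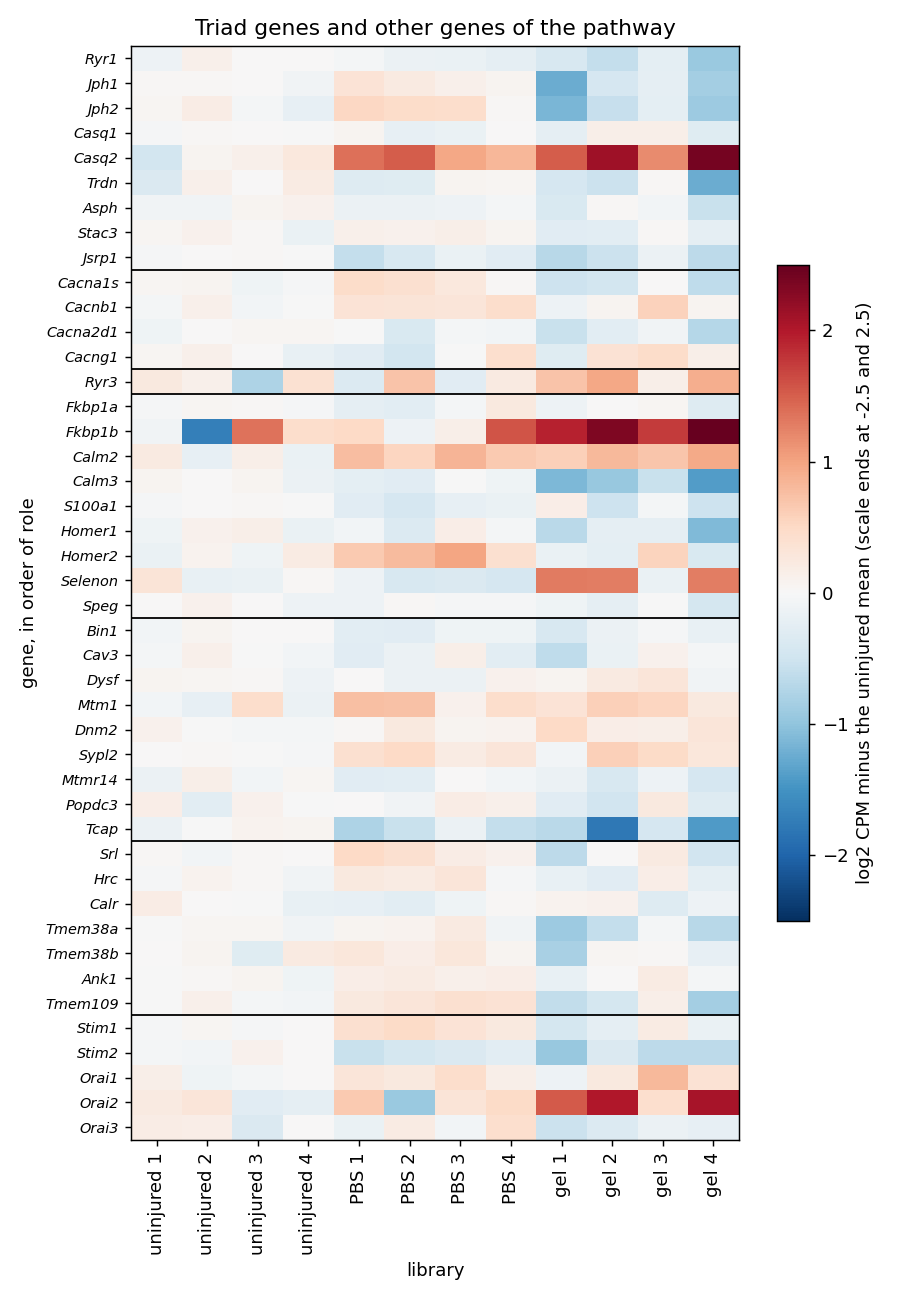
Log2 CPM of the 9 genes and 35 other tested pathway genes in each library minus the uninjured mean; the colour scale is labelled and ends at the limits it shows, and lines part the roles. Casq2 is red in all PBS and gel libraries, and Jph1 and Jph2 are palest among gel libraries in gel 3.

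The genes with the most similar profile, by Pearson r of log2 CPM over the 12 libraries, are given as a description; the libraries share groups and scaling. For Jph2 they were Eif4g1 (0.994), Zdhhc3 (0.987) and Epm2a (0.984), and for Jph1 Prkab2 (0.990), Hif1an (0.987) and Ibtk (0.986). Ryr1 was closest to Wnt4 (0.973) and Cacng7 (0.959). For Casq2 they were Atp1b4 (0.943), Cln8 (0.932) and Wdr1 (0.930). Jsrp1 was closest to the troponin gene Tnnc2 (0.972) and Stac3 to Armc8 (0.964). Casq1 had the lowest best match, Micu3 (0.847). Among the 9, Jph1 and Jph2 gave r = 0.966, Jph2 and Stac3 0.916 and Ryr1 and Trdn 0.858. For Casq2 the r with each other member was negative, from -0.30 with Casq1 to -0.87 with Jsrp1.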

How the data were processed

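RNA of tibialis anterior was extracted and made into libraries by a commercial laboratory, per the labels' protocols. The deposited files hold whole-number read counts per gene symbol, 1 file per library; STAR, edgeR and build mm39 are named in the submitters' processing notes, without versions, and no label or header states the counting tool or its strand setting. From these counts edgeR 4.0.16 in R 4.3.3 was run on all 12 libraries with filterByExpr, TMM scaling and robust quasi-likelihood fits (9 residual degrees of freedom), with Benjamini-Hochberg adjustment over 13499 genes. CPM used TMM-scaled library sizes, and log2 CPM a prior count of 2. Intervals are 95%. The fits were tested on simulated data. Depth was 15626086 to 22182483 reads.

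The 9 genes, the pathway lists and the marker lists were chosen with earlier results of these data known. The text names all 9 genes, the pathway genes that passed (some are not reported here), and Cacna1s, Cacnb1, Bin1, Stim1, Orai1 and Ryr3 always. The 4 libraries of a group were treated as replicates; deposited names carry animal numbers, and p-values measure the spread between these libraries only. Same-numbered gel and PBS libraries carry the same animal number with left and right, so the numbers pair them. Their deviations from the group means correlated at 0.14, -0.06, 0.31 and 0.08 over genes. Between different numbers the correlation ran from -0.27 (gel 3 with PBS 1) to 0.20 (gel 4 with PBS 1), so the pairing rests on the names. Alternatives were DESeq2 1.42.0, limma 3.58.1 voom, 2 other scalings, no filter, the 2 groups alone, the replicate block (fitted on gel and PBS alone), each library left out, and unscaled library totals (added later). Markers of endothelial, mural, satellite and Schwann cells had 0 or 1 gene called in each comparison.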

Additional observations from a re-analysis of the deposited data

How the results depend on the processing

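The fits used the counts of 4 libraries a group, which limit the precision. Under the paired fit (replicate block) for gel against PBS the 9 genes gave 2 calls, both lower, as without it. That fit holds only those 2 groups: over all genes it called 2971, the same 2 groups without the block 2559, and all 12 libraries 4022. Srl was not called with the block (-0.52, adjusted p = 0.0905) nor in the 2 groups without it (adjusted p = 0.115), Tmem38a was called with it but not in the 2 groups without it, and Bin1 was -0.000688. Against the fit of all 12 libraries no other named gene changed its call.

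Calls among the 9 genes moved as follows. For gel against PBS they were 5 with DESeq2, 4 with limma voom and 4 with median-ratio factors, and 2 to 7 with a library left out. For gel against uninjured they were 3 with unscaled totals and 5 to 7 with a library left out. For PBS against uninjured they were 3 with the 2 groups alone and 0 to 2 with a library left out. For all genes, PBS against uninjured gave 1417 with DESeq2, 2339 with the 2 groups alone and 378 to 1693 with a library left out. Gel against PBS gave 4022 with edgeR and TMM scaling, 4578 with DESeq2, 3905 with limma voom and 4063 with median-ratio factors. It gave 2559 with the 2 groups alone and 2456 to 5962 with a library left out. Gel against uninjured gave 3449 with edgeR and TMM scaling, 4488 with unscaled totals and 2275 to 5341 with a library left out. With unscaled totals, calls for gel against uninjured thus fell among the 9 genes and rose over all genes. For the other pathway genes, PBS against uninjured gave 4 with DESeq2, 13 with the 2 groups alone, 4 with unscaled totals and 1 to 6 with a library left out, gel against PBS 7 to 19 and gel against uninjured 7 to 18. The cause was not tested.

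Signs reversed only for values that did not pass. With unscaled totals these were Casq1 (0.00494 for PBS and 0.212 for gel against uninjured), Asph (0.0818 for gel against PBS, 0.0248 for gel against uninjured), Jsrp1 (0.0474 for gel against PBS), and for gel against uninjured Stac3 (0.0797), Bin1 (0.0757) and Stim1 (0.12). Upper-quartile scaling gave Casq1 0.00897 for gel against uninjured. Bin1 for gel against PBS was -0.0175 with DESeq2, -0.00307 with voom, -0.0176 with median-ratio factors and -0.0177 with no filter. With a library left out, gel against PBS ran from -0.0626 to 0.0762 for Casq1, -0.0664 to 0.0621 for Bin1 and -0.120 to 0.202 for Orai1; gel against uninjured ran from -0.131 to 0.00749 for Casq1 and -0.0113 to 0.251 for Cacnb1; PBS against uninjured ran from -0.209 to 0.241 for Ryr3. The Jph2 to Jph1 ratio for gel against uninjured ran from -0.0735 to 0.0197.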
